A study of Mus musculus with 9 samples.

Results

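The genes described here encode subunits of voltage-gated sodium, potassium and calcium channels and of their close relatives, in a mouse neuroblastoma cell line with raised, normal or lowered Tcof1. Members were chosen by name: a probe set belonged if the array's annotation gave it exactly 1 gene symbol and that symbol began with Scn (without Scnn, a separate family), Kcn or Cacn, or with Hcn and a digit. This gave 140 probe sets among 22626 tested, and 97 genes among 12393 that had a probe set of their own. Of the 97 genes, 64 had 1 probe set and 33 had several, up to 5 for Kcnj6. The name rule also took in Scnm1, which encodes a splicing factor called a sodium channel modifier and not a channel subunit, and its values are kept apart below.

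All 9 arrays carried total RNA of N1E-115, a line derived from a mouse neuroblastoma. The label of wildtype array A spells the line N1-115. The labels set out 3 groups: cells overexpressing mouse Tcof1, wildtype cells, and cells in which Tcof1 was knocked down, with 3 arrays each, lettered A, B and C. The sources used here do not give the means by which Tcof1 was raised or lowered, nor whether each group is 1 clone, nor whether a letter is a culture of its own. The p-values therefore rest on the array-to-array spread alone, and that spread may be technical.

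Voltage-gated channels open when the membrane potential changes and let sodium or calcium into the cell or potassium out of it. Pore subunits (Scn1a to Scn11a, Cacna1, and most Kcn families) conduct the ions, and auxiliary subunits (Scn3b, Cacna2d, Cacnb, Cacng, Kcnab, Kcnip, Kcnmb and Kcne) set how fast the pore opens or closes and how many pores reach the surface. Neuroblastoma cells such as N1E-115 have long served as a model of neuronal excitability. Tcof1 encodes treacle, a nucleolar protein of ribosomal RNA synthesis, and the design asks which other transcripts move when it is raised or lowered.

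The array medians ranged from 164.1 to 185.95 intensity units. The Tcof1 probe set 1423600_a_at read 385.5, 232.4 and 263.6 in overexpressing arrays, 143.1, 156.3 and 149.8 in wildtype, and 134.8, 112.1 and 133.0 in knockdown arrays. Its log2 fold change was 0.87 ± 0.21 (SE, limma adjusted p = 0.0241) in overexpressing cells and -0.22 ± 0.21 (adjusted p = 0.744) in knockdown cells against wildtype. The other 2 Tcof1 probe sets gave 0.63 (adjusted p = 0.0786) and 0.39 (adjusted p = 0.187) in overexpressing, and -0.40 (adjusted p = 0.51) and 0.06 (adjusted p = 0.934) in knockdown cells. A lowering of Tcof1 was thus not detected in the arrays labelled knockdown by any of its 3 probe sets. Of 24 measured neuroblastoma and sympathetic neuron markers, 19 were brighter than the median of all probe sets, Th, Dbh and Phox2a among them. Their summed intensity ran from 70198 to 78575 in overexpressing arrays, 83114 to 87186 in wildtype and 84059 to 91504 in knockdown arrays, so that the overexpressing arrays were lowest. Over wildtype 2 of these markers (Dbh and Isl1) were called higher and 4 (Chga, Eno2, Stmn2 and Uchl1) lower in overexpressing cells. The shares of all probe sets were 4.52% and 5.07%. Over knockdown 1 was called higher and 7 lower, against 3.43% and 4.14% of all. Of all probe sets above the median, 16.9% were called over wildtype and 13.2% over knockdown, in either direction. The calls of Eno2 and Chga (lower) held in all 18 alternatives in both comparisons, as did that of Dbh (higher) over wildtype. Over wildtype the calls of Isl1, Stmn2 and Uchl1 were lost in 2, 10 and 7 of 18. Over knockdown those of Isl1 (higher), Mycn, Slc18a1, Tubb3, Gap43 and Uchl1 were lost in 11, 6, 6, 10, 9 and 7 of 18. Summed fibroblast markers, 2 of 12 above that median, ran from 3724 to 4074 in overexpressing arrays, 5226 to 5637 in wildtype and 5312 to 5791 in knockdown arrays. Summed muscle markers, 2 of 20 above it, ran from 2412 to 2808, 2630 to 2852 and 2596 to 2987 in the same order. For Schwann cell and glia markers (2 of 12 above the median) the sums were 6276 to 7722, 7075 to 9768 and 7453 to 7704, and for blood and immune cell markers (1 of 9) 676.9 to 817.6, 744.3 to 830.1 and 605.1 to 973.3. The fibroblast markers Fbln1 and Pdgfrb were called lower over wildtype and over knockdown, against 5.07% and 4.14% of all probe sets. Their calls over wildtype held in all alternatives, and each over knockdown was lost in 2. Tnnt3 (muscle) was called lower over wildtype and Cd3e (blood) over knockdown, and each call was lost in 10 of 17. No Schwann cell or glia marker was called. The part of these markers in the channel results was not tested, and in bulk RNA fewer cells of a type and less RNA per cell cannot be told apart.

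Channel transcripts gave dim signals. The members' mean intensity over the 9 arrays ran from 3 to 714.1, with a median of 49.6 against 175.2 for all probe sets. Only 22 of 140 members (15.7%), from 19 genes, were brighter than the median of all, and 71 (50.7%) read under 50, against 25.5% of all probe sets. In 29 members the mean was under 16, the amount added before the log2, and changes of such members are strongly understated. The brightest probe sets belonged to Scn3b, Kcnh2, Cacng3, Kcnab1, Scnm1 and Hcn2. Intensities of different probe sets depend on the probes, so this order is not an order of expression.

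**Figure D1:**
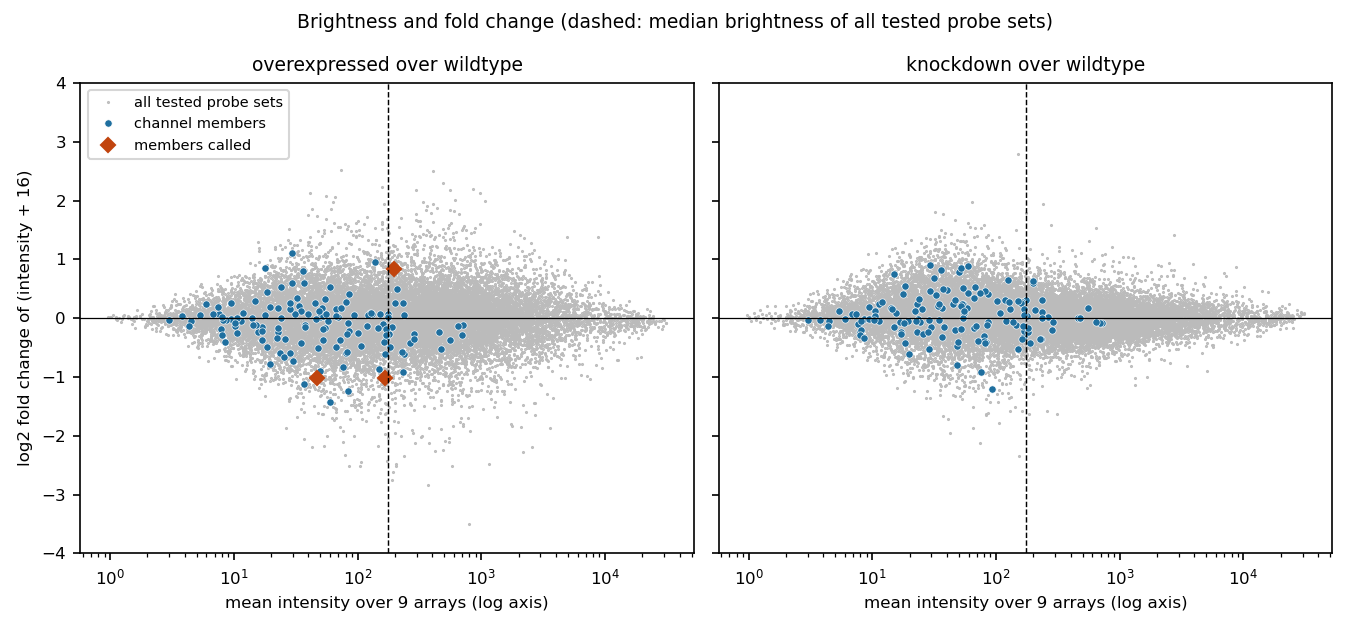
Mean intensity over 9 arrays (x, log axis) against the log2 fold change of intensity + 16 (y) for all 22626 tested probe sets in grey, members in blue and called members in red, with overexpressed over wildtype on the left and knockdown over wildtype on the right. Only 22 of 140 members lie right of the dashed median of 175.2, and the 3 red diamonds are in the left panel.

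In overexpressing cells, 3 members of 3 genes passed the test against wildtype (limma, Benjamini-Hochberg adjusted p under 0.05 over all probe sets). Kcnmb2 rose, and Cacnb1 and Scn3a fell. The 1 member called higher is 0.714% of 140, against 4.52% of all probe sets, and the 2 called lower are 1.43%, against 5.07% of all. Without regard to the test, all 3 overexpressing arrays lay above all 3 wildtype arrays for 5 members (3.57%, against 13.3% of all) and below them for 16 (11.4%, against 14.4% of all). The median log2 fold change of members was -0.08 against -0.02 for all probe sets, and 82 of 140 were negative (58.6%, against 52.1% of all).

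In knockdown cells no member passed the limma test against the same 3 wildtype arrays, in either direction. Of all probe sets, 0.00442% were called higher and 0.00884% lower. At an unadjusted p under 0.05 there were 6 members (4.29%, against 10.9% of all), and the smallest adjusted p of a member was 0.322. Knockdown arrays lay entirely above wildtype for 7 members (5%, against 8.63% of all) and entirely below for 7 (5%, against 7.01% of all). The members' median was 0.00061, against 0.03 for all probe sets.

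Overexpressing and knockdown cells were also set against each other, which tests whether the differences from wildtype differ. Cacnb1, Kcnab1 and Kcnn3 were lower in overexpressing cells (3 of 140, 2.14%, against 4.14% of all), and no member was called higher (3.43% of all), with 17 members at an unadjusted p under 0.05 in either direction (12.1%, against 22.5% of all). All overexpressing arrays lay below all knockdown arrays for 21 members (15%, against 15.2% of all) and above them for 6 (4.29%, against 12.9% of all). The members' median was -0.09, against -0.05 for all, and 98 of 140 were negative (70%, against 55.7% of all).

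**Figure D2:**
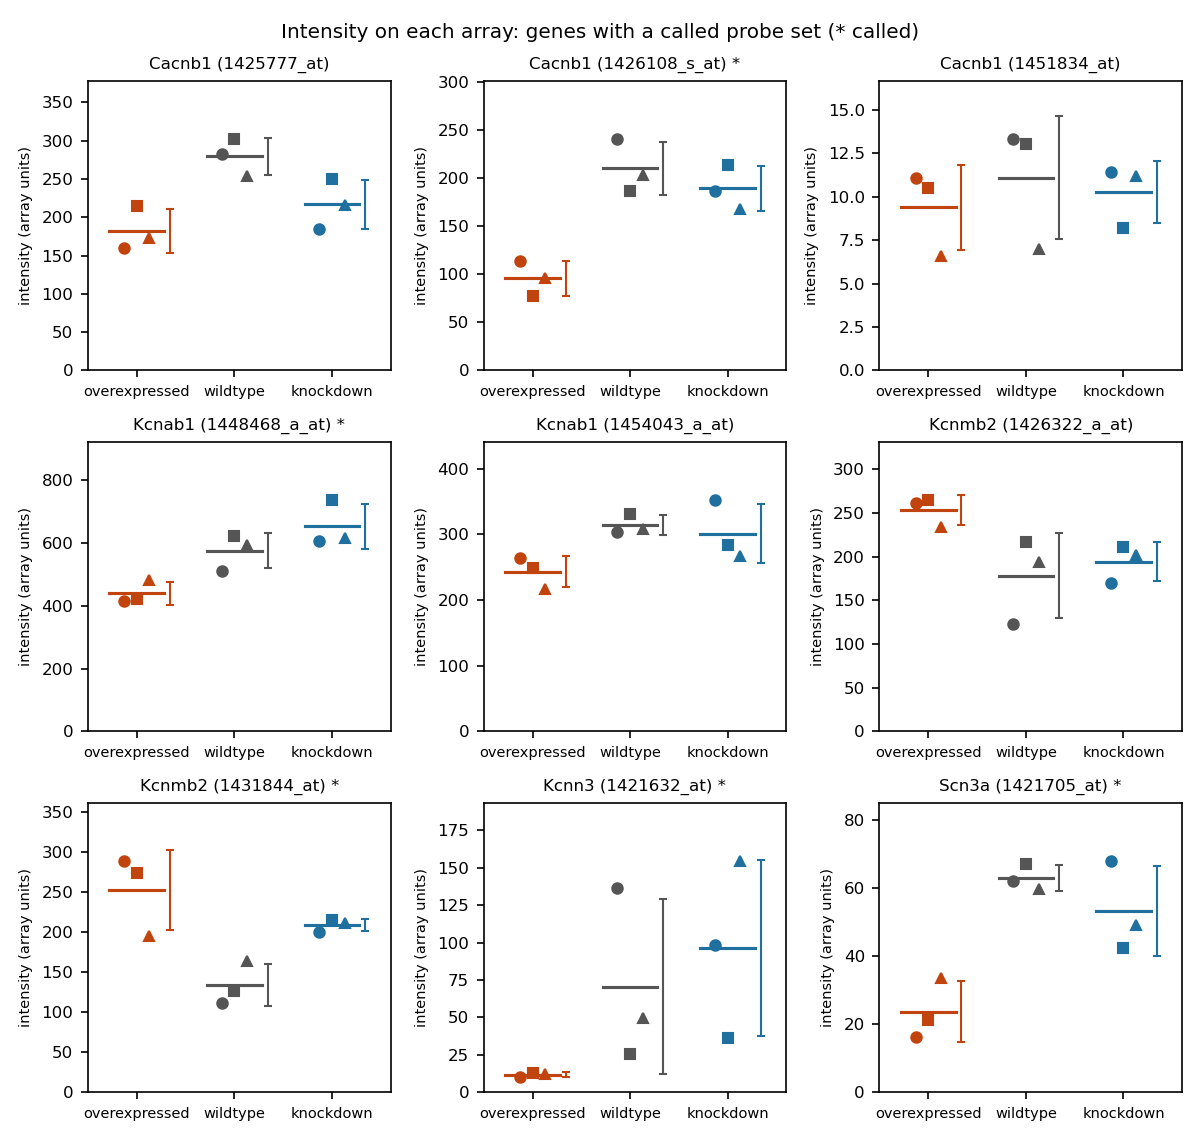
Intensity (y, linear, from 0) on each of 9 arrays for every probe set of the 5 genes with a called probe set, marked by a star where it was called in at least 1 of the 3 comparisons. Points are arrays (circle A, square B, triangle C), bars group means and brackets 1 SD either side. The overexpressing arrays of the starred sets of Cacnb1 (77.2 to 114.1) and Scn3a (16.3 to 33.7) lie below all wildtype arrays, and those of the starred Kcnmb2 set (195.4 to 288.4) lie above them.

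Promoter sequences are shown for the 3 genes called lower in overexpressing than in knockdown cells (Cacnb1, Kcnab1 and Kcnn3), beside that of Kcnmb2, the 1 member called higher over wildtype. Scn3a, called lower over wildtype, is named only. They come from RefSeq on the mouse assembly GRCm38.p6, from 250 bases before to 50 bases after an annotated start, written 5′ to 3′ along the gene's strand. The array table does not say which start a probe set reports, and Cacnb1 and Kcnab1 have further starts that are not printed. Capitals mark matches to the E-box CACGTG or, on either strand, to the SP1 box GGGCGG. The stretches are Cacnb1 at chr11:98022578-98022877 on the minus strand, Kcnab1 at chr3:65108764-65109063, Kcnn3 at chr3:89519914-89520213 and Kcnmb2 at chr3:31902453-31902752, the last 3 on the plus strand.
Cacnb1: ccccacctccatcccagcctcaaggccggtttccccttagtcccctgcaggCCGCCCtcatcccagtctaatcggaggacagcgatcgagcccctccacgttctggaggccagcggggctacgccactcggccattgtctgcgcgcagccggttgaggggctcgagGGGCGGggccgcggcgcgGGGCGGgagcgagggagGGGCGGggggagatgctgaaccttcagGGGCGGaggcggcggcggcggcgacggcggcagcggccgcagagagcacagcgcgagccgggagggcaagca
Kcnab1: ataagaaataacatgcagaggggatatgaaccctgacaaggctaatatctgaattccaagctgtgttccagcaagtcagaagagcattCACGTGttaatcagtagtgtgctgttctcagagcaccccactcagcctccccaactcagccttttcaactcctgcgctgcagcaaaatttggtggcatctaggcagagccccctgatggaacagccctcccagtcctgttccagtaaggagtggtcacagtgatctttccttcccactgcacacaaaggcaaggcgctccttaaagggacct
Kcnn3: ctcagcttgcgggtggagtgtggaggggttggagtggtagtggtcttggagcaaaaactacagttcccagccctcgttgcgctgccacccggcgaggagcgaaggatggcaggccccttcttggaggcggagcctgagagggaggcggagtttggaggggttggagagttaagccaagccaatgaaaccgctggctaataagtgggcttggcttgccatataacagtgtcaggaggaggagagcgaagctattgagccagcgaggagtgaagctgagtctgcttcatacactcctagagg
Kcnmb2: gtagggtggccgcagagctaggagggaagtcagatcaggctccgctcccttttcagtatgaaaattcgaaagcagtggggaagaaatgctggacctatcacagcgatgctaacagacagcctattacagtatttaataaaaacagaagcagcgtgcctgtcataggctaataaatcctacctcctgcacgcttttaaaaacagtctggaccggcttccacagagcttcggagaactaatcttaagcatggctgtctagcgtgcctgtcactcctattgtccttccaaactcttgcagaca
The Cacnb1 stretch held 5 SP1 boxes and no E-box, the Kcnab1 stretch held 1 E-box and no SP1 box, and neither the Kcnn3 nor the Kcnmb2 stretch held a match. A further Kcnab1 start, at chr3:64948962-64949261, held 2 SP1 boxes, the motif of the Cacnb1 stretch, and no E-box. Another Kcnab1 start, at chr3:65187853-65188152, held 1 E-box and no SP1 box. The further Cacnb1 start, at chr11:98018323-98018622, held neither motif and had a GC content of 59.3%. GC content was 73.7% for Cacnb1, 50.3% for Kcnab1, 57.7% for Kcnn3 and 47.7% for Kcnmb2, against medians of 52.7% over all promoters and 58.3% over those of members. Of 104 member promoters (76 genes), 6 held the E-box (5.77%, against 7.15% of 32851 promoters) and 49 the SP1 box (47.1%, against 35.7%). A match is a string of letters and not a measured binding site.

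Cacnb1 encodes the beta 1 subunit, a cytoplasmic protein that carries calcium channel pores to the membrane. Its probe set 1426108_s_at, of the s type, whose probes may match more than 1 transcript, read 114.1, 77.2 and 95.7 in overexpressing arrays A, B and C. It read 240.3, 186.4 and 203.2 in wildtype and 186.2, 213.9 and 167.5 in knockdown arrays. The overexpressing arrays lay below all 6 others, and wildtype and knockdown overlapped. On the log2 scale the fold change was -1.02 ± 0.20 (SE, limma adjusted p = 0.0107) over wildtype, -0.14 ± 0.20 (adjusted p = 0.856) for knockdown over wildtype, and -0.88 ± 0.20 (adjusted p = 0.0257) for overexpressed over knockdown. Against wildtype the call held in all 17 alternative settings that kept this probe set, with adjusted p from 0.00342 to 0.0456. Against knockdown it was lost without overexpressing array B or C or knockdown array A or B, with adjusted p from 0.0604 to 0.087.

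A second Cacnb1 probe set, 1425777_at, read 159.5, 214.8 and 172.7 in overexpressing arrays, 282.7, 301.8 and 254.2 in wildtype, and 185.1, 249.7 and 215.9 in knockdown arrays. Both the overexpressing and the knockdown arrays lay below all wildtype arrays. Its log2 fold change was -0.58 ± 0.18 over wildtype, which did not pass the test (limma adjusted p = 0.0653), and -0.23 ± 0.18 over knockdown (adjusted p = 0.495). Over wildtype this probe set passed in 2 of 18 alternatives. These were only the brighter probe sets tested (adjusted p = 0.0304) and array quality weights (adjusted p = 0.0352). The third Cacnb1 probe set read 10.3 on average, below the added 16. The other beta subunits, Cacnb2 and Cacnb4, had 3 probe sets, none above 10.2 in mean intensity, and none passed.

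The calcium channel pore genes gave 12 probe sets of 9 genes, of which 3 were above the median of all probe sets, and none passed in any comparison. Their log2 fold changes over wildtype ran from -0.62 to 0.25 in overexpressing and from -0.3 to 0.63 in knockdown cells. Cacna1h, the T-type pore Cav3.2, read 259.5, 231.6 and 287.0 in overexpressing arrays, 360.5, 310.8 and 276.1 in wildtype and 193.3, 332.9 and 304.1 in knockdown arrays by its brighter probe set. The groups overlapped, with a log2 fold change over wildtype of -0.27 and a 95% interval from -0.72 to 0.18. Cacna1d, the L-type pore Cav1.3, read 223.2 ± 6.65 (SD, n = 3), 216.2 ± 42.4 and 267.9 ± 14.6 in the same order by probe set 1428051_a_at. Its log2 fold change of 0.06 in overexpressing cells had an interval from -0.31 to 0.43. By this probe set the log2 fold change over wildtype turned to -0.08 without wildtype array A. In another Cacna1d probe set all knockdown arrays lay below all wildtype arrays, as in 7.01% of all probe sets.

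The alpha2delta subunits, which raise the number of calcium channels at the surface, gave 6 probe sets of 3 genes, none above 55.2 in mean intensity, and none passed. Of the 10 probe sets of 8 gamma subunit genes, several of which act on glutamate receptors rather than on calcium channels, none passed. Cacng3, such a glutamate receptor partner, was the bright one, at 615.2 ± 53.1 (SD, n = 3) in overexpressing arrays, 679.2 ± 99.6 in wildtype and 646 ± 53.3 in knockdown arrays. The log2 fold change of Cacng3 in overexpressing cells was -0.13, with a 95% interval from -0.41 to 0.15.

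Scn3a encodes Nav1.3, a sodium channel pore of embryonic brain and of injured sensory neurons. It read 16.3, 21.4 and 33.7 in overexpressing arrays, 62.2, 67.2 and 59.7 in wildtype, and 68.0, 42.5 and 49.3 in knockdown arrays. Every overexpressing array lay below all 6 others, and these levels are dim for this table. Scn3a had a log2 fold change of -1.01 ± 0.25 (SE, limma adjusted p = 0.0292) over wildtype, -0.21 ± 0.25 (adjusted p = 0.818) for knockdown over wildtype, and -0.81 ± 0.25 (adjusted p = 0.0805) for overexpressed over knockdown. The call against wildtype was lost without overexpressing array A or B, or without any 1 wildtype array, with adjusted p from 0.052 to 0.112.

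The other sodium channel pores did not pass in any comparison. Of the 11 pore probe sets, 1 was brighter than the median of all. In overexpressing over wildtype 9 were positive and 2 negative (52.1% of all probe sets were negative), with a median of 0.25. In knockdown over wildtype, which shares the wildtype arrays, 7 were positive, with a median of 0.23. Overexpressed over knockdown gave 6 negative and a median of -0.01. Scn8a (Nav1.6, the main pore of mature axons) was the brightest, at 174.7 ± 21.4 (SD, n = 3) in overexpressing arrays, 174.2 ± 33.2 in wildtype and 180.2 ± 41.6 in knockdown arrays. The log2 fold change of Scn8a in overexpressing cells was 0.01, with a 95% interval from -0.46 to 0.48. Scn9a (Nav1.7, of sympathetic and sensory neurons) averaged 95.5, 67.1 and 95.2 in the same order, and its knockdown arrays lay above all wildtype arrays. Scn2a (Nav1.2) averaged 63.4, 99.3 and 77.3 by its brighter probe set, 1427280_at, and Scn11a (Nav1.9) 48.2, 37.5 and 49.8.

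Scn1a (Nav1.1) was scattered at low signal. By probe set 1450120_at it read 10.2, 77.8 and 46.5 in overexpressing arrays, 10.6, 9.5 and 6.2 in wildtype, and 43.7, 52.5 and 8.2 in knockdown arrays, so that single arrays of both altered groups fell among the wildtype values. By probe set 1450121_at all overexpressing Scn1a values (26.8 to 31.7) lay above all wildtype values (14.5 to 17.5), and the difference did not pass. Scn10a (Nav1.8) and Scn7a, with means of at most 23.5 in any group, were near or below the added 16. Scn3b, the beta 3 subunit of sodium channels and the brightest member by probe set 1435767_at, read 660.0, 684.6 and 719.5 in overexpressing arrays, 799.3, 743.9 and 703.9 in wildtype, and 688.5, 695.1 and 732.2 in knockdown arrays. Its groups overlapped, and the log2 fold change of -0.12 in overexpressing cells had a 95% interval from -0.33 to 0.09. The second Scn3b probe set had a log2 fold change of -0.15 there, which turned to 0.03 without wildtype array A.

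The auxiliary subunits of potassium channels gave 26 probe sets of 15 genes. In overexpressing cells 1 of them was called higher over wildtype, Kcnmb2 (against 4.52% of all probe sets), and 1 lower over knockdown, Kcnab1 (against 4.14% of all). Kcnmb2 encodes the beta 2 subunit of the large-conductance calcium-activated channel, which makes that channel inactivate. Its probe set 1431844_at read 288.4, 273.2 and 195.4 in overexpressing arrays, 111.8, 126.4 and 163.4 in wildtype, and 200.0, 215.5 and 210.9 in knockdown arrays. Both altered groups lay above all wildtype arrays, and overexpressing and knockdown arrays overlapped.

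For that Kcnmb2 probe set the log2 fold change was 0.84 ± 0.20 (SE, limma adjusted p = 0.0256) in overexpressing and 0.60 ± 0.20 (adjusted p = 0.322) in knockdown cells. These comparisons share the wildtype arrays. Overexpressed over knockdown gave 0.24 ± 0.20 (adjusted p = 0.545), with a 95% interval from -0.21 to 0.68. The second Kcnmb2 probe set, 1426322_a_at, read 261.6, 264.4 and 233.5 in overexpressing arrays, 123.2, 216.6 and 194.1 in wildtype, and 169.3, 210.9 and 202.3 in knockdown arrays. Its overexpressing arrays lay above all others, the knockdown arrays lay within the wildtype range, and the log2 fold change of 0.50 ± 0.21 over wildtype did not pass (adjusted p = 0.178). The call of 1431844_at was lost without overexpressing array A or B or wildtype array A or B, with adjusted p from 0.0856 to 0.103.

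The other large-conductance channel subunits did not pass. Kcnmb4, the neuronal beta 4 subunit, read 295.9, 281.9 and 220.3 in overexpressing arrays, 194.1, 219.5 and 242.1 in wildtype, and 214.8, 221.5 and 217.6 in knockdown arrays, with a log2 fold change in overexpressing cells of 0.26 and a 95% interval from -0.10 to 0.62. The brighter Kcnmb1 probe set, 1421400_at, averaged 79.7, 98.1 and 125.1, and its dimmer set, 1421401_at, 26.8, 7.3 and 19.3, so the 2 sets of this gene went opposite ways in overexpressing cells. Without knockdown array B the dimmer set was called higher over wildtype (adjusted p = 0.0345). Over the 5 Kcnmb probe sets, 4 were positive in overexpressing over wildtype (median 0.50), and 5 were positive in knockdown over wildtype (median 0.30), which became 4 under quantile normalization or a common array median. Kcnma1, the pore these subunits attach to, read 164.4 ± 29.8 (SD, n = 3), 200 ± 14.3 and 177.4 ± 13 by its brighter probe set, with a log2 fold change in overexpressing cells of -0.27 and an interval from -0.67 to 0.13.

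The Kcnab genes encode cytoplasmic beta subunits that bind Shaker-type (Kcna) potassium pores. Kcnab1 by probe set 1448468_a_at read 415.4, 421.6 and 483.3 in overexpressing arrays, 512.7, 622.1 and 595.0 in wildtype, and 607.2, 736.8 and 617.5 in knockdown arrays. The overexpressing arrays lay below all others, and wildtype and knockdown overlapped. This gave a log2 fold change of -0.55 ± 0.12 (SE, limma adjusted p = 0.0238) over knockdown and -0.38 ± 0.12 over wildtype, which did not pass (adjusted p = 0.087). Over wildtype it passed in 1 of 18 alternatives, with array quality weights (adjusted p = 0.0384). The call over knockdown was lost without overexpressing array A or B, without knockdown array B or C, and with no mean-variance trend, with adjusted p from 0.0506 to 0.0894. The second Kcnab1 probe set read 263.6, 248.3 and 217.3 in overexpressing arrays, 303.4, 331.4 and 308.0 in wildtype, and 351.8, 283.1 and 267.4 in knockdown arrays, where the overexpressing arrays were again the lowest, and its log2 fold change over knockdown was -0.28 ± 0.15 (adjusted p = 0.301).

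Kcnab2 had lower overexpressing than wildtype values in all arrays by both of its probe sets, without passing the test. By 1416956_at it read 147.4, 114.4 and 204.0 in overexpressing arrays, 334.2, 283.2 and 287.2 in wildtype, and 142.9, 277.3 and 306.7 in knockdown arrays, where knockdown array A stood apart from B and C. The log2 fold change over wildtype was -0.92 ± 0.28 (limma adjusted p = 0.0639). It passed without knockdown array A (adjusted p = 0.0251) and with only the brighter probe sets tested (adjusted p = 0.0258). By 1425885_a_at the Kcnab2 log2 fold change was -0.87 ± 0.34 (adjusted p = 0.15). Of the 6 Kcnab probe sets, 5 were negative in overexpressing over wildtype (median -0.62, also 5 under both other scalings), and in 4 the overexpressing arrays lay entirely below wildtype (as did 14.4% of all probe sets).

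Kcnab3 by its brighter probe set read 12.1, 97.1 and 29.4 in overexpressing arrays, 114.1, 86.9 and 123.8 in wildtype, and 103.9, 100.1 and 88.7 in knockdown arrays. Overexpressing array B lay among the wildtype values while A and C were far below. Its log2 fold change over wildtype was -1.23 ± 0.42 and did not pass (limma adjusted p = 0.0988). Without overexpressing array B Kcnab3 was called lower over wildtype (adjusted p = 0.0104) and over knockdown (adjusted p = 0.0185). The pores these subunits bind were dim: the 7 Kcna probe sets of 7 genes had mean intensities from 18.3 to 159.3, and none passed in any comparison. Kcnip3, a calcium-binding partner of Shal-type pores that also acts as a transcriptional repressor, read 179.5, 207.5 and 242.3 in overexpressing arrays, 301.9, 341.1 and 225.8 in wildtype, and 301.2, 285.7 and 282.9 in knockdown arrays. Its log2 fold change of -0.43 in overexpressing cells (95% interval -0.82 to -0.03) did not pass (adjusted p = 0.181).

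Kcne1l, an auxiliary subunit of slow potassium pores, read 10.7, 8.8 and 12.7 in overexpressing arrays, 17.6, 67.0 and 54.4 in wildtype, and 48.7, 26.2 and 86.0 in knockdown arrays. The overexpressing arrays lay below all others and below the added 16. Kcne1l had a log2 fold change over wildtype of -1.12 ± 0.39 and did not pass (limma adjusted p = 0.0997). Without wildtype array A it was called lower over wildtype (adjusted p = 0.0364) and over knockdown (adjusted p = 0.0343), and with array quality weights over wildtype (adjusted p = 0.0317).

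**Figure D3:**
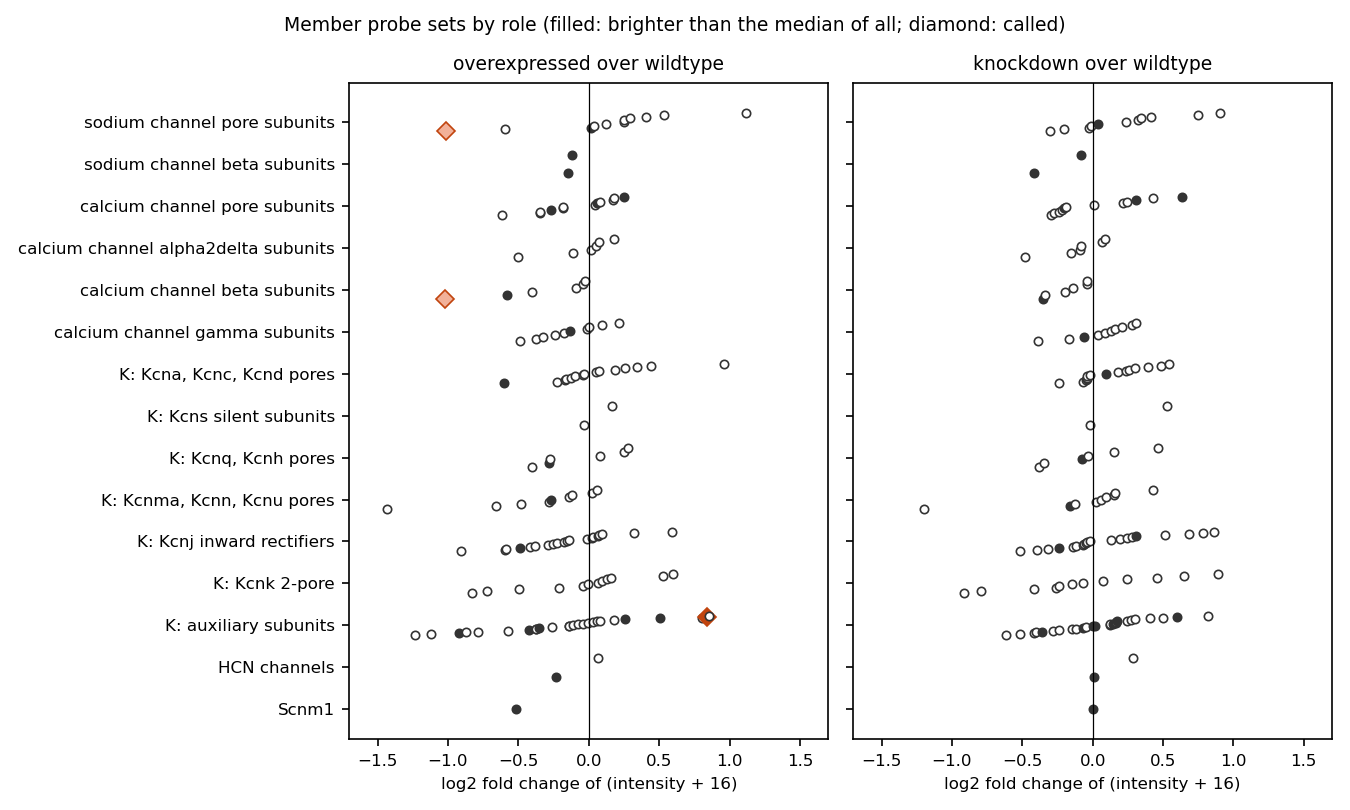
Log2 fold change of intensity + 16 (x) of each member probe set by role of its gene (rows), with overexpressed over wildtype on the left and knockdown over wildtype on the right. Filled points are brighter than the median of all probe sets and diamonds were called; the 3 diamonds are Scn3a, Cacnb1 and Kcnmb2 in the left panel, and the right panel has none.

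Kcnn3 encodes SK3, a small-conductance potassium channel opened by calcium. It read 10.0, 13.2 and 12.1 in overexpressing arrays, 136.5, 25.9 and 49.4 in wildtype, and 98.4, 36.5 and 154.2 in knockdown arrays. The overexpressing values were below the added 16 and lay below all others, while the wildtype and knockdown arrays spread widely and overlapped. Kcnn3 had a log2 fold change of -1.86 ± 0.50 (SE, limma adjusted p = 0.046) over knockdown, -1.43 ± 0.50 (adjusted p = 0.102) over wildtype, and 0.43 ± 0.50 (adjusted p = 0.805) for knockdown over wildtype. The call was lost in 10 of 17 alternatives (adjusted p 0.0568 to 0.134), among them leaving out any 1 overexpressing array, wildtype array C, or knockdown array A or C. Its relative Kcnn1 spread as widely by 1 of 2 probe sets: 1419617_at read 98.1, 129.3 and 98.0 in overexpressing arrays, 203.3, 159.8 and 27.5 in wildtype and 33.2, 17.9 and 67.5 in knockdown arrays. This Kcnn1 probe set did not pass, but without wildtype array C it was called higher in overexpressing than in knockdown cells (adjusted p = 0.0489).

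Voltage-gated potassium pores gave no call. Kcnc1 encodes Kv3.1, which allows fast repeated firing, and read 173.7, 156.8 and 166.9 in overexpressing arrays, 287.5, 276.0 and 220.8 in wildtype, and 271.5, 359.4 and 222.3 in knockdown arrays. The overexpressing arrays lay below all 6 others. Kcnc1 had a log2 fold change of -0.60 ± 0.19 over wildtype (limma adjusted p = 0.079) and -0.70 ± 0.19 over knockdown (adjusted p = 0.0533). Over knockdown it passed without knockdown array C, with a pseudocount of 1, with array quality weights and with only the brighter probe sets tested (adjusted p 0.0231 to 0.0472), and over wildtype in the last 2 of these settings (adjusted p = 0.0449 and 0.0367).

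Kcnh2, the ERG pore that helps set the resting potential of neuroblastoma cells, read 616.1, 583.2 and 646.0 in overexpressing arrays, 842.5, 671.3 and 749.3 in wildtype, and 674.3, 815.3 and 655.7 in knockdown arrays. All overexpressing arrays lay below the others, by a small step: the log2 fold change was -0.28 with a 95% interval from -0.55 to -0.02 (adjusted p = 0.187). Hcn2, a pacemaker pore opened by hyperpolarization, read 351.7, 455.8 and 408.8 in overexpressing arrays, 423.2, 506.5 and 508.6 in wildtype, and 425.6, 562.7 and 464.9 in knockdown arrays. Its groups overlapped, with a log2 fold change of -0.24 and an interval from -0.56 to 0.09. Hcn3 ranged from 60.3 to 237.7 within the overexpressing group alone, and its wildtype arrays read 122.4 to 138.3.

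The inward rectifiers, which hold the resting potential, gave 20 probe sets of 13 genes and no call in any comparison. Their median log2 fold change was -0.16 in overexpressing over wildtype and -0.03 in knockdown over wildtype. Over knockdown, 18 of 20 were negative (against 55.7% of all probe sets), which became 14 under quantile normalization and 17 with a common array median. The 2-pore (Kcnk) channels, which leak potassium at rest, gave 12 probe sets of 8 genes, all dimmer than the median of all probe sets, and no call.

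The 2-pore genes nevertheless supplied 3 of the 5 smallest p-values in knockdown over wildtype, none of which passed. Kcnk1 (TWIK1) by 1448690_at read 67.3, 34.5 and 73.1 in overexpressing arrays, 158.0, 103.8 and 84.6 in wildtype, and 43.4, 44.5 and 71.0 in knockdown arrays, so both altered groups lay below wildtype. Its log2 fold change was -0.92 ± 0.31 (limma adjusted p = 0.333) in knockdown cells. By the dimmer Kcnk1 probe set, 1455896_a_at, both altered groups overlapped wildtype. That set gave 0.13 (limma adjusted p = 0.937) in overexpressing and -0.80 (adjusted p = 0.623) in knockdown cells. Kcnk4 (TRAAK, a mechanosensitive pore) read 98.2, 112.4 and 110.4 in overexpressing arrays, 73.5, 98.5 and 132.7 in wildtype, and 150.9, 218.6 and 135.0 in knockdown arrays, with 0.65 ± 0.25 (adjusted p = 0.387) in knockdown cells. Kcnk7 read 86.1, 28.5 and 73.9, then 27.5, 40.9 and 38.9, then 98.7, 86.9 and 56.8 in the same order, with 0.89 ± 0.34 (adjusted p = 0.378). The other 2 of the 5 were Kcnmb2, above, and Scn10a, whose knockdown arrays (16.3 to 31.5) overlapped wildtype (2.9 to 16.5), with 0.75 ± 0.29 (adjusted p = 0.388).

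Scnm1, the splicing factor taken in by name, read 295.6, 393.9 and 408.6 in overexpressing arrays, 577.5, 546.3 and 463.4 in wildtype, and 480.1, 549.1 and 554.6 in knockdown arrays. The overexpressing arrays lay below all 6 others, and the log2 fold change of -0.52 ± 0.15 missed the threshold over wildtype (limma adjusted p = 0.0508) and over knockdown (adjusted p = 0.058). It passed over wildtype in 5 of 18 alternatives (adjusted p 0.0279 to 0.0484), among them without wildtype array C. Without Scnm1 the members' median in overexpressing over wildtype was still -0.08.

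Calls were also counted by brightness. Among probe sets above the median, 1 of 22 members was called in overexpressing over wildtype (4.55%), against 16.9% of all probe sets there. Among the dimmer ones 2 of 118 were called (1.69%), against 2.32% of all. The 22 bright members had a median log2 fold change of -0.25, with 15 of 22 negative, against -0.0045 for all bright probe sets. Without wildtype array A this median was -0.19. Knockdown over wildtype gave 0.00061 for the same 22 members.

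The bright members were measured well enough to bound most changes. Their median SE was 0.18 on the log2 scale, against 0.28 for the dimmer members. The 95% interval lay within 2-fold either way for 18 of 22 bright members in overexpressing over wildtype, for 20 of 22 in knockdown over wildtype, and for 19 of 22 in overexpressed over knockdown. For the 118 dimmer members it did so in 76, 73 and 68, so for the others a change of over 2-fold was within the interval. These are intervals of intensity + 16. In dim members, above all the 29 with a mean under 16, an interval within 2-fold therefore does not bound the change of the intensity itself. Where a gene had several probe sets, their fold changes had 1 sign in 23 of 33 genes in overexpressing over wildtype, 18 in knockdown over wildtype and 20 in overexpressed over knockdown.

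Proteins that anchor, traffic or modify channels were read by the brightest probe set of each gene. Of 35 measured of 45 listed, 1 rose and 3 fell in overexpressing over wildtype (against 4.52% and 5.07% of all probe sets, and 16.9% in either direction of those above the median). None passed in knockdown over wildtype (smallest limma adjusted p = 0.24). In overexpressing cells 2 (Cntnap2 and Ndfip1) were lower than in knockdown cells, against 4.14% of all probe sets. Cntnap2, which clusters Kcna pores beside the node of myelinated axons, averaged 166.3 ± 3.13 (SD, n = 3) in overexpressing arrays, 287.8 ± 18.7 in wildtype and 349.3 ± 28.5 in knockdown arrays, and its log2 fold change was -0.74 ± 0.14 over wildtype (adjusted p = 0.00865), and it was also lower than in knockdown cells (adjusted p = 0.00271). Stac, an adaptor of L-type calcium channels, averaged 495.1 ± 80.6, 259.7 ± 46.9 and 322.6 ± 11.6, with 0.89 ± 0.16 over wildtype (adjusted p = 0.00687). Ndfip1, an adaptor of ubiquitin ligases that act on ion channels, averaged 2119 ± 186, 3252 ± 408 and 2998 ± 245, with -0.61 ± 0.11 (adjusted p = 0.00754). These 3 calls over wildtype, and that of Cntnap2 over knockdown, held in all 18 alternatives. Over knockdown the call of Ndfip1 was lost in 6 of 18 (adjusted p up to 0.0897), among them leaving out overexpressing array A or B or knockdown array A or C. The fourth, Crbn (lower), lost its call in 5 of 17 (adjusted p up to 0.0969), among them leaving out overexpressing array A or C or wildtype array A or B.

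Other cation channels (TRP, ryanodine, inositol trisphosphate, mechanosensitive and similar) were measured for 43 of 69 listed genes. In overexpressing over wildtype 4 fell and none rose (against 5.07% and 4.52% of all probe sets), and none passed in knockdown over wildtype (smallest limma adjusted p = 0.29). Of the 43 genes 11 were above the median of all probe sets, and 16.9% of all above it were called over wildtype in either direction. Over knockdown Tmem63a and Trpv2 were lower in overexpressing cells (against 4.14% of all) and none was higher. That Trpv2 call was lost in 12 of 18 alternatives. Tmem63a, a stretch-activated cation channel, averaged 171.4 ± 4.94 (SD, n = 3) in overexpressing arrays, 521.3 ± 105 in wildtype and 348.4 ± 38.2 in knockdown arrays, with a log2 fold change of -1.50 ± 0.17 (adjusted p = 0.000669) over wildtype and -0.95 (adjusted p = 0.00855) over knockdown, and both calls held in all 18 alternatives. The other 3, Trpv2, Ryr3 and Itpr3, lost their calls over wildtype in 4, 10 and 5 of 18 alternatives, with adjusted p up to 0.104, 0.157 and 0.0957. Each of these 3 was lost without overexpressing array A, without overexpressing array B and without wildtype array B, and further such arrays were wildtype array A for Ryr3 and Itpr3, overexpressing array C for Itpr3, and knockdown arrays A and C for Ryr3.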

How the data were processed

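Total RNA of a mouse neuroblastoma line, 9 samples per the labels, was measured on 1-colour arrays whose probe set names are of the Affymetrix kind. The deposited values are linear intensities, 1 per probe set and array. The sources used here give no software, background correction or scaling for them.

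Of 22690 probe sets, 64 controls were left out. Intensities were used as deposited and converted to log2(intensity + 16), which understates changes of dim probe sets. Models were fitted with limma 3.58.1 (R 4.3.3), using lmFit with a mean per group over all 9 arrays and eBayes with its mean-variance trend, and Benjamini-Hochberg adjustment ran over 22626 probe sets per contrast. An adjusted p under 0.05 was a call. The fit was tested on simulated data. Fold changes are ± SE, intensities ± SD over 3 arrays, and the number of arrays limits the precision.

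Named members were those called in any contrast, the 12 genes with the brightest probe sets, the 5 smallest p in each contrast with fewer than 5 called, and all Scn and Hcn genes. Other members named with values (Kcnab3, Kcne1l, Kcnmb1, Kcnma1 and Kcnn1) were chosen after their values were seen. Members and gene lists were chosen with earlier results of these data known. All 140 members matched RefSeq gene identifiers. Same-lettered arrays were not treated as pairs, since their deviations correlated at only -0.01 to 0.1. Alternatives were pseudocounts, a brightness filter, scalings, no trend, array weights, a replicate block, probe set types, and leaving out each array.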

Additional observations from a re-analysis of the deposited data

How the results depend on the processing

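The counts of members called and their medians were recomputed under 18 alternatives. In overexpressed over wildtype, 1 of 140 members was called higher (1022 of 22626 of all probe sets). Leaving out single arrays gave 0 (overexpressing A or B, wildtype A or B) to 2 (knockdown B). There 2 of 140 were called lower (1147 of 22626 of all). With the dimmest probe sets, up to the 40th percentile, left out, 1 of 39 was called higher (1315 of 13575 of all) and 5 of 39 lower (1389 of 13575). With array quality weights 7 of 140 were called lower (1470 of 22626 of all). Leaving out single arrays gave 1 lower (without overexpressing A or wildtype B) to 3 (without knockdown A). The members' median of -0.0834 became -0.1752 with that brightness filter. In overexpressed over knockdown 0 were called higher, and leaving out single arrays gave 0 to 1 (wildtype C). There 3 of 140 were called lower (937 of 22626 of all probe sets), against 1 with no mean-variance trend (511 of 22626 of all). With the brightness filter 4 of 39 were called lower (1124 of 13575 of all). Leaving out single arrays gave 1 (without any 1 overexpressing array or knockdown A or B) to 4 (without wildtype A). The median of -0.0916 became -0.1983 with a pseudocount of 1, -0.2428 with the brightness filter, and -0.2113 to -0.0735 when single arrays were left out. In knockdown over wildtype no alternative gave a call. The replicate block of the letters, whose meaning the labels do not give, left the counts the same (1 higher and 2 lower over wildtype, 3 lower over knockdown).

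With single arrays left out, the log2 fold change in overexpressing cells ran from -0.083 to 0.1845 for Cacna1d and from -0.3244 to 0.0302 for the second Scn3b probe set, and both signs turned without wildtype array A. That of Scn8a, 0.0123 with all arrays, ran from -0.077 to 0.1508 and was -0.0863 with array quality weights. Over all probe sets, overexpressed over knockdown had 776 higher and 937 lower calls, which became 790 and 585 with a common array median. Knockdown over wildtype had 1 higher and 2 lower, which became 25 and 21 with the brightness filter. How far the 71 members that read under 50 stood above background was not tested.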

Other observations

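Chloride and anion channels, which the channel families above do not include, were measured for 20 of 37 listed genes. In overexpressing over wildtype 1 fell and none rose (against 5.07% and 4.52% of all probe sets). Of the 20 genes 14 were above the median of all probe sets, and 16.9% of all above it were called in either direction. None passed in knockdown over wildtype (smallest limma adjusted p = 0.314). The 1 that fell was Ano10, a member of the anoctamin family, at 1129 ± 71.3 (SD, n = 3) in overexpressing arrays, 1545 ± 109 in wildtype and 1574 ± 125 in knockdown arrays, with a log2 fold change of -0.45 ± 0.09 (adjusted p = 0.0146) over wildtype. The Ano10 call over wildtype was lost in 4 of 18 alternatives (adjusted p up to 0.0669). These were no mean-variance trend, and leaving out overexpressing array A, overexpressing array B or wildtype array B. Over knockdown Ano10 was also called lower (limma adjusted p = 0.0148), against 4.14% of all probe sets, and that call was lost in 4 of 18.

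Ion pumps and exchangers were measured for 26 of 38 listed genes, 15 of them above the median of all probe sets. In overexpressing over wildtype 1 was higher and 3 lower, against 4.52% and 5.07% of all probe sets. Of all those above the median, 16.9% were called there in either direction. None passed in knockdown over wildtype (smallest limma adjusted p = 0.0701). Over knockdown Atp1b3 and Slc12a2 were called higher and Fxyd1 and Fxyd7 lower in overexpressing cells, against 3.43% and 4.14% of all. The calls of Atp1b3 and Slc12a2 over knockdown were lost in 3 and 7 of 18 alternatives, and those of Fxyd1 and Fxyd7 in none. Fxyd7 and Fxyd1 encode small membrane proteins that modulate the sodium-potassium pump. Fxyd7 averaged 82.6 ± 30.3 (SD, n = 3) in overexpressing arrays, 400.7 ± 42.1 in wildtype and 386.8 ± 59.9 in knockdown arrays, with a log2 fold change of -2.12 ± 0.24 (adjusted p = 0.000668) over wildtype and -2.07 (adjusted p = 0.000942) over knockdown. Fxyd1 averaged 78 ± 37.4, 284.9 ± 29.3 and 231.1 ± 25.2, with -1.75 ± 0.27 (adjusted p = 0.00309) over wildtype. Slc8b1, the mitochondrial sodium-calcium exchanger, averaged 343.5 ± 33.6, 668.4 ± 38.2 and 389.9 ± 36.2, with -0.93 ± 0.12 (adjusted p = 0.00151) over wildtype and -0.18 (adjusted p = 0.445) over knockdown. These 3 calls over wildtype held in all 18 alternatives. Slc12a2, the sodium-potassium-chloride cotransporter, was higher (576.3 ± 9.7, 407.1 ± 61.8 and 394.5 ± 6.41), with 0.50 ± 0.12 (adjusted p = 0.0296), and lost its call in 6 of 18 alternatives (adjusted p up to 0.104): no mean-variance trend, and leaving out any 1 overexpressing array or wildtype array A or B.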
